A study of Arabidopsis thaliana with 248 samples.

Results

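The mitochondrial genome of *Arabidopsis* was represented by 146 genes (identifiers beginning with ATMG) among the 33602 genes of the mRNA-seq count tables used here. These genes were described in every genotype and library of those tables. They comprise 122 protein-coding genes, 21 tRNA genes, and 3 rRNA genes, with annotated spans of 22 to 7982 bases (median, 411). Plant mitochondria keep a small genome that is usually inherited through the seed parent. It encodes core subunits of the respiratory complexes and of ATP synthase, factors that attach heme to cytochrome *c*, some ribosomal proteins, and the rRNAs and tRNAs of the organelle, whereas most mitochondrial proteins are encoded in the nucleus and imported. Its transcripts are spliced and edited inside the organelle, and copies of mitochondrial DNA have been inserted into nuclear chromosomes during evolution.

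The study crossed *suvh4/5/6*, the triple mutant of the H3K9 methyltransferase genes *SUVH4*, *SUVH5*, and *SUVH6*, with *cmt2/3*, the double mutant of the DNA methyltransferase genes *CMT2* and *CMT3*, to follow the silencing of transposable elements (TEs). The first experiment had 27 libraries, 3 for each of WT (Col-0), *suvh4/5/6*, *cmt2/3*, and the F1 hybrids sxc (*suvh4/5/6* seed parent) and cxs (*cmt2/3* seed parent), and for the same 4 mutant genotypes carrying *ldl2-1*, a mutant allele of the H3K4me1 demethylase gene *LDL2*. The second had 9 libraries, 3 for each of WT, cxs, and cxs in which both parents carried the *sdg7-2* allele of the H3K36 methyltransferase gene *ASHH3*. A further mRNA-seq experiment of the study, with WT, *ashh3*, *ibm1*, and *ibm1 ashh3*, was not described here. RNA came from whole 2-week-old seedlings, so the mRNA of all tissues was mixed, and fewer cells of a type cannot be told apart from less RNA per cell. In an F1 the *suvh* and *cmt* mutations are heterozygous, whereas *ldl2* or *ashh3*, where present, came from both parents. All comparisons with WT within an experiment share its 3 WT libraries.

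Counts per library ranged from 8448989 to 12942034 in the *ldl2* experiment and from 8252720 to 10656469 in the *ashh3* experiment. Levels are given as CPM, the counts of a gene relative to all counts of its library, expressed per 1e+06, with library sizes scaled by the trimmed mean of M values (TMM). The photosynthetic genes *RBCS1A* and *CAB1* were abundant in all 27 libraries of the *ldl2* experiment. *SUVH4* was at 3.19 to 3.96 CPM in the *suvh4/5/6* parents against 13.3 to 14.3 in WT, *CMT3* was at 7.95 to 11.6 CPM in the *cmt2/3* parents against 32.4 to 38.1 in WT, and *ASHH3* was at 11.5 to 13.2 CPM in the *ashh3* libraries against 15.7 to 21.8 in the others. The count of *LDL2* overlapped between libraries with and without *ldl2-1* (2.16 to 5.37 and 2.84 to 5.48 CPM) and so did not check that label. *SUVH6* was at 12.2 to 33.8 CPM in the *suvh4/5/6* parents, overlapping 17.83 to 21.96 in WT, and so did not check that label either. It was highest in sxc *ldl2* (middle library 40.4 CPM, against 15.9 in sxc), a difference that was not tested. *SUVH5* was at 0.466 to 1.85 CPM in the *suvh4/5/6* parents against 4.62 to 5.34 in WT. *CMT2* was at 23.3 to 35.9 CPM in the *cmt2/3* parents against 36.7 to 40.2 in WT. It was also at 29.3 to 33.5 CPM in the *suvh4/5/6* parents, which carry no *cmt* mutation, and so did not check that label. Replicate 2 of cxs *ldl2* stood apart by its scaling factor of 1.31, where the other libraries of that experiment were near 1. It also had the lowest *RBCS1A* (5700 CPM, against 11498 to 16777 in the other 26 libraries) and *CAB1* (4170 CPM, against 8286 to 19425) and the most genes with counts (30088). For the sets of genes described below, where a count of calls or a named fold change in cxs *ldl2* changed without this library, the value without it is given. Counts and shares of all genes were taken only with this library in the fit. The part of the lower photosynthetic genes in these results was not tested.

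Not a single count was listed for any mitochondrial gene. All 146 genes had a count of 0 in all 27 libraries of the *ldl2* experiment (3942 values) and in all 9 libraries of the *ashh3* experiment (1314 values). The zeros included genes with very different roles. Among the respiratory chain genes were *nad1* to *nad7*, *nad4L*, and *nad9*, subunits of the NADH dehydrogenase complex I, *cob*, the apocytochrome *b* of complex III, and *cox1*, *cox2*, and *cox3*, the core subunits of the cytochrome oxidase complex IV. *atp1*, *atp4*, *atp6*, *atp8*, and *atp9* of ATP synthase, the cytochrome *c* maturation genes, the ribosomal protein genes, the maturase gene *matR*, and the 26S, 18S, and 5S rRNA genes were at 0 as well. A library with no count for a gene would still be compatible with up to 3 counts from sampling alone, which is 0.232 to 0.355 CPM in the *ldl2* experiment and 0.282 to 0.364 CPM in the *ashh3* experiment. This limit covers counting error only, and it applies only if reads could have been assigned to these genes.

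The same was true of the other organelle genome and was not true of nuclear genes (plot of genes without counts by genome and class). All 133 chloroplast genes had a count of 0 in every library of both experiments, including the genes of the photosynthetic apparatus, beside the high counts on *RBCS1A* and *CAB1*, which are nuclear genes for chloroplast proteins. Of the 33323 nuclear genes, 935 (2.81%) had no counts in the *ldl2* experiment and 2486 (7.46%) had none in the *ashh3* experiment. Among nuclear protein-coding genes these shares were 0.724% and 2.46%, among nuclear tRNA genes 0.475% and 6.34%, and all 4 nuclear rRNA genes had counts. Because genes that every plant cell uses are at 0, a count of 0 here does not measure the level of a mitochondrial transcript. The 12 further count files of the series, which match no sample label and were not analysed here, do list counts above 0 for some mitochondrial and chloroplast genes, so the zeros belong to the tables of these experiments and not to every file of the study. Whether the organelle sequences were part of the genome to which the reads of these tables were mapped is not given in the sources used here, and the fate of organelle reads was not tested.

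**Figure D1:**
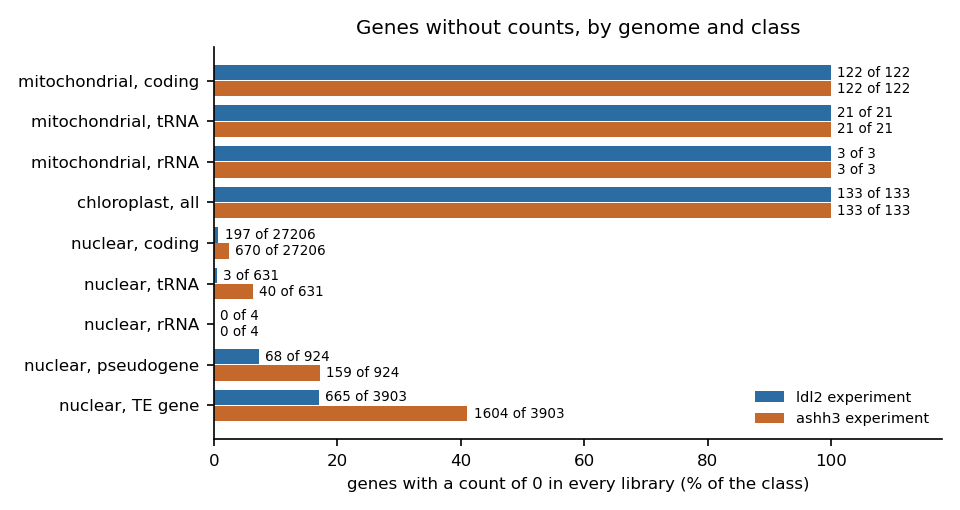
Share of genes with a count of 0 in every library (% of the class, horizontal axis) for classes of mitochondrial, chloroplast, and nuclear genes (vertical axis), in the *ldl2* experiment (27 libraries) and the *ashh3* experiment (9 libraries). Numbers beside the bars are genes at 0 of all genes of the class; all mitochondrial and chloroplast classes are at 100%, and no nuclear class passes 41.1%.

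The tables hold 1 strand for each gene, and the mark for the antisense strand showed how ties were handled. In the *ldl2* table all 146 mitochondrial genes carried the antisense mark, as did all 133 chloroplast genes and all 935 nuclear genes without counts. In the *ashh3* table none of the 146 carried it, and 92 of the 2486 nuclear genes without counts did. The mark of a mitochondrial gene therefore says nothing about the direction of its transcription.

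With no counts, no difference between genotypes could be measured for the mitochondrial genes. None of the 146 was called at an adjusted P under 0.05 in any of the 17 comparisons by the quasi-likelihood F test of edgeR with Benjamini-Hochberg adjustment over all 33602 genes, none had an unadjusted P under 0.05, and DESeq2 gave no adjusted P for any. Among all genes, the comparison of *suvh4/5/6* with WT called 2.61% (2.09% higher), that of *suvh4/5/6 ldl2* 3.95% (2.94% higher), that of *cmt2/3* 3.67% (2.32% higher), and that of *cmt2/3 ldl2* 1.23%. For the F1 hybrids against WT the share was 0.857% (sxc), 1.78% (sxc *ldl2*; 1.55% higher), 0.78% (cxs), and 1.39% (cxs *ldl2*). For the effect of *ldl2* it was 0.0238% in *suvh4/5/6*, 0.0625% in *cmt2/3*, 0.128% in sxc, and 0.101% in cxs. Between the reciprocal crosses, which differ in the seed parent and so in the source of the mitochondria, it was 0.00298% for cxs against sxc and 2.83% for cxs *ldl2* against sxc *ldl2*. The shares for cxs *ldl2* include its replicate 2 and were not taken without it. Any difference among the 9 genotypes was called for 7.09% of all genes and for none of the mitochondrial genes. In the *ashh3* experiment 5.63% of all genes were called in cxs and 5.43% in cxs *ashh3* against WT, and 1.06% in cxs *ashh3* against cxs. The 0 of 146 in each comparison is a property of the table and not a test of the genes.

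Mitochondrial sequence was nevertheless counted, at nuclear genes that are copies of it. The reference mitochondrial genome of TAIR10.1 (367808 bases) was aligned to its nuclear chromosomes, and alignments of at least 100 bases and 95% identity covered 99.6% of a stretch of 270728 bases on chromosome 2 (chr2:3239038-3509765, TAIR10.1), beside the centromere, where TEs are dense. Covered over at least 80% of their span, 133 nuclear genes were taken as copies, 129 of them in this insertion. By the notes of the annotation, 45 of the 146 mitochondrial genes are the best protein match of 1 or more of these copies, giving 46 pairs. In each of the 46 pairs the mitochondrial gene had 0 counts and the nuclear gene had counts, in both experiments.

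The sequences show how close the pairs are. Of 15 mitochondrial coding sequences without introns that could be placed on a copy over their whole length without gaps, 12 were identical to it, among them *atp1*, *cob*, *cox3*, *nad3*, *nad6*, *atp8*, *atp9*, and *rps12*. The neighbors *nad3* and *rps12*, a complex I subunit and a protein of the small ribosomal subunit, are shown because their copies had the highest counts for their length. The first 90 bases of each coding sequence are given, from the mitochondrial genome (M) and from chromosome 2, with the start codon in capitals (RefSeq, TAIR10.1).
*rps12*, M:288446-288535, plus strand: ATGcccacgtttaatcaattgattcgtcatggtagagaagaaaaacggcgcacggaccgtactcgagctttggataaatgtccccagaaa
AT2G07675, chr2:3270410-3270499, plus strand: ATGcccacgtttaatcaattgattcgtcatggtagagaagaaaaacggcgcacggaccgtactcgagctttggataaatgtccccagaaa
*nad3*, M:288044-288133, plus strand: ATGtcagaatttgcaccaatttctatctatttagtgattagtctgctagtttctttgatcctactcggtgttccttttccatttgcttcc
AT2G07751, chr2:3270008-3270097, plus strand: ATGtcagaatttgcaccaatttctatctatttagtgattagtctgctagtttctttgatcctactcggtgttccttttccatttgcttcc

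A copy that differs is shown for *ccmFN1*, a cytochrome *c* maturation gene, because this copy is 1 of 3 whose level differed among genotypes in the test given further on. Its coding sequence of 1149 bases has 1 difference, C54T, counted from the first base of the mitochondrial coding sequence, and the differing base is in capitals within bases 9 to 98.
*ccmFN1*, M:316021-316110, plus strand: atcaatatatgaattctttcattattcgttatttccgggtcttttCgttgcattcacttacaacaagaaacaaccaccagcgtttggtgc
AT2G07783, chr2:3297898-3297987, plus strand: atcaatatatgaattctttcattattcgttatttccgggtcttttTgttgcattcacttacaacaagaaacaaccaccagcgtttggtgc
The *matR* copy AT2G07712 had 5 differences over 1971 bases. The *mttB* copy AT2G07716 matched its gene up to a run of C near the end of the coding sequence, where its sequence is shifted by 1 base, which the comparison without gaps counts as 21 differences.

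The identity extends beyond the genes. The copies of *rps12* and *nad3* lie together in a stretch of 1479 bases that is the same, base for base, in the mitochondrial genome, that of *cox3* in 2915 bases, that of *atp9* in 2944 bases, and that of *cob* in 3244 bases. In all, 54 of the 133 copies lie wholly inside such a stretch, of 831 to 7685 bases. Reads of 100 bases, the length left after the clipping by the authors, were compared by cutting each copy into windows of 100 bases, and for 55 copies every window also occurs in the mitochondrial genome. In the counts on copies, 38.4% in the *ldl2* experiment and 41.6% in the *ashh3* experiment fell on these 55 genes. By the genome sequence, a read from a mitochondrial transcript and one from its nuclear copy cannot be told apart there. Edited bases of the transcripts were not looked at, and counts per gene do not show them. The counts of all copies below are given with that limit. Among the copies long enough to hold a window, only AT2G07732 and AT2G07739, copies of chloroplast-derived stretches of the mitochondrial genome, also share windows with the chloroplast genome (2.17% and 20.2% of their windows). The copies annotated as tRNA genes are shorter than a window and were not compared in this way.

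The copies held a small part of each library. Together they had 1840 to 3290 counts per library in the *ldl2* experiment, 0.0156% to 0.0361% of all counts, and 1307 to 1701 in the *ashh3* experiment, 0.0135% to 0.0194%. All 133 had at least 1 count in the *ldl2* experiment and 127 in the *ashh3* experiment, and 33 and 32 had a mean of at least 1 CPM. The 31 copies that hold at least 200 bases of a named coding gene took 77.4% and 74.7% of the counts on copies. The 23 copies annotated as tRNA genes took 0.815% and 0.692%, and none of them reached a mean of 1 CPM.

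By role, the 9 copies of complex I genes had 27.5% of the counts on copies in the *ldl2* experiment and 27.7% in the *ashh3* experiment, and the 5 copies of ribosomal protein genes 20.2% and 18.5%. The 6 copies of cytochrome *c* maturation genes had 13.5% and 8.58%, and the 5 of ATP synthase genes 10.7% and 14.6%. The 3 copies of *matR* and *mttB*, a maturase gene and a gene for a protein of the inner membrane transport machinery, had 3.56% and 2.99%. The single *cob* copy had 1.22% and 1.37%, and the 2 copies of *cox2* and *cox3* had 0.844% and 0.903%. The order of the roles was thus not the same in both experiments, and the tables were not compared by a test, because the strand of a gene was chosen for each table.

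Per length, the copy of *rps12* was highest, with 98.6 CPM per kilobase of its span in the *ldl2* experiment (37.3 ± 7.04 CPM, SD, n = 27) and 66.3 in the *ashh3* experiment (25.1 ± 3.36 CPM, SD, n = 9; AT2G07675). The *nad3* copy just upstream followed, with 39.8 and 34.8 CPM per kilobase (14.2 ± 3.39 and 12.4 ± 1.40 CPM; AT2G07751), and its CPM lay below that of the *rps12* copy without overlap between the ranges over libraries. The *atp9* copy AT2G07671, for the ring subunit of the proton channel of ATP synthase, came next, with 10.3 and 12.2 CPM per kilobase. Next in the *ldl2* experiment came a tRNA copy, AT2G07754, with 8.99 CPM per kilobase from a mean of only 0.342 CPM, and the *ccmFN1* copy AT2G07783, with 8.66. The *ccmFN1* copy was lower in the *ashh3* experiment, at rank 21 of 133, whereas *rps12*, *nad3*, and *atp9* kept the first 3 ranks in both.

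**Figure D2:**
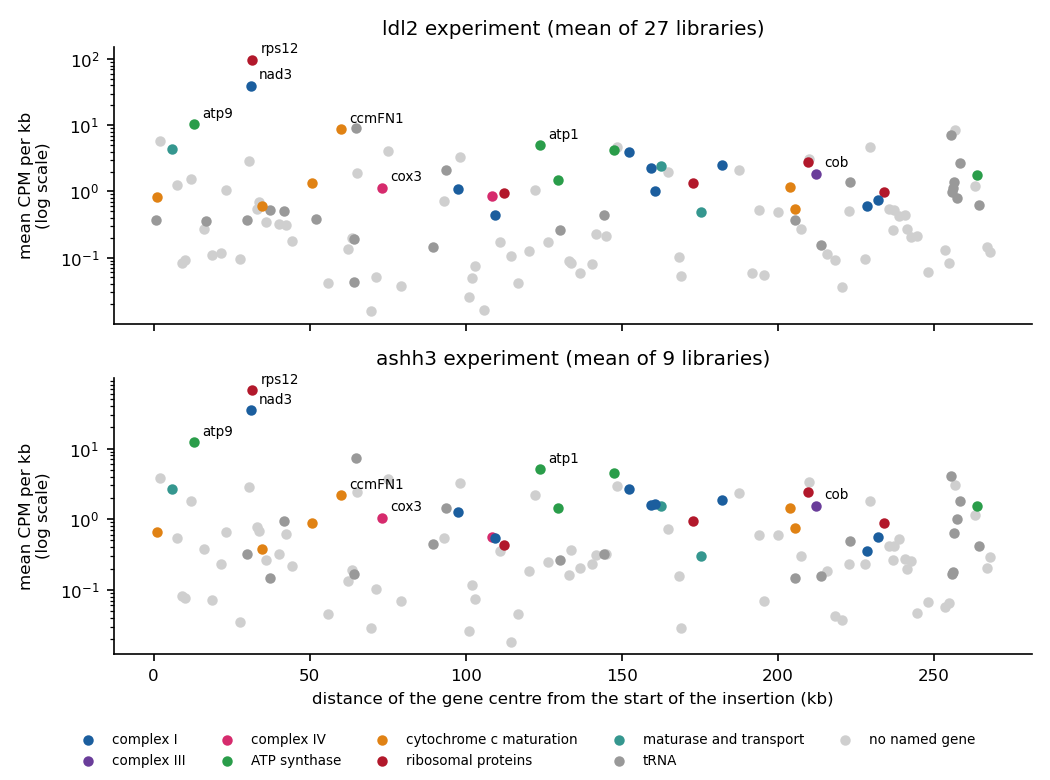
Mean CPM per kilobase of span (vertical axis, log scale) of the 129 nuclear copies in the insertion on chromosome 2, against the distance of the gene centre from the start of the insertion in kilobases (horizontal axis); colors give the role of the mitochondrial gene, and copies without counts are not drawn. The copies of *rps12* and *nad3* stand next to each other and above all others in both experiments.

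The values by library show the most abundant copies in each genotype. The *rps12* copy AT2G07675 was at 35.6, 41.9, and 33.9 CPM in WT, 32.9, 29.6, and 39.0 in *suvh4/5/6*, 30.2, 33.3, and 42.5 in *cmt2/3*, 32.1, 49.1, and 57.1 in sxc, and 25.8, 33.4, and 32.6 in cxs. With *ldl2* it was at 33.9, 27.6, and 32.6 CPM in *suvh4/5/6*, 42.2, 44.9, and 41.8 in *cmt2/3*, 39.0, 37.9, and 34.2 in sxc, and 43.6, 45.1, and 34.1 in cxs. The ranges of most genotypes overlapped that of WT, and the log2 fold changes against WT ran from -0.28 ± 0.17 in cxs to 0.31 ± 0.17 in sxc (SE, n = 3 against 3), none of them called (adjusted P of at least 0.538, edgeR). In the *ashh3* experiment it was at 24.2, 30.6, and 25.8 CPM in WT, 19.7, 22.3, and 22.3 in cxs, and 26.8, 25.6, and 28.3 in cxs *ashh3*. All 3 cxs libraries lay below all 3 of WT, with a log2 fold change of -0.33 ± 0.12 that was not called (adjusted P = 0.148, edgeR).

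The *nad3* copy AT2G07751 was at 15.9, 16.9, and 12.97 CPM in WT, 12.3, 8.69, and 18.4 in *suvh4/5/6*, and 11.9, 10.5, and 13.3 in *suvh4/5/6 ldl2*. It was at 14.6, 6.62, and 10.6 CPM in cxs *ldl2*, a spread as wide as the difference between genotypes, and its largest log2 fold change against WT was -0.53 ± 0.26 there (adjusted P = 0.295, edgeR), or -0.27 ± 0.27 without replicate 2 (AT2G07751). The *nad7* pseudogene AT2G07709, for another complex I subunit, was at 21.4, 26.6, and 25.8 CPM in WT and at 19.0, 18.7, and 17.2 in *suvh4/5/6 ldl2*, where all libraries were lower and the log2 fold change was -0.42 ± 0.24 (adjusted P = 0.419, edgeR).

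The *atp1* copy AT2G07698, for the alpha subunit of ATP synthase, was at 14.1, 11.8, and 14.7 CPM in WT. *suvh4/5/6* libraries had 9.66, 9.08, and 10.2 CPM and *suvh4/5/6 ldl2* libraries 9.39, 8.77, and 9.47, so that all 6 libraries of these genotypes lay below the 3 of WT. The log2 fold changes were -0.49 ± 0.25 and -0.55 ± 0.25 and were not called (adjusted P = 0.446 and 0.281, edgeR). In the *ashh3* experiment its libraries of cxs (9.89, 11.1, and 13.7 CPM) and cxs *ashh3* (12.1, 12.9, and 13.3 CPM) also lay below those of WT (15.5, 17.1, and 15.2 CPM), with log2 fold changes of -0.46 ± 0.15 and -0.32 ± 0.15 (adjusted P = 0.0795 and 0.305, edgeR).

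None of the 133 copies was called in any of the 17 comparisons. At an unadjusted P under 0.05 there were from 0 copies (sxc against WT) to 10 (cxs *ldl2* against WT and against sxc *ldl2*). Of all 33602 genes, 5885 and 8011 passed that level in these comparisons of cxs *ldl2*. In the fit without replicate 2 of cxs *ldl2*, 0 and 1 copies passed it. DESeq2 called 2 copies in each of cxs *ldl2* against cxs and cxs *ldl2* against sxc *ldl2* and none in the other 15 comparisons. In *suvh4/5/6 ldl2* all 9 copies at an unadjusted P under 0.05 were lower than in WT, and the median log2 fold change of the 133 copies was -0.57, where the median of all genes was 0. The share of all genes at that level was not taken for this comparison, so the 9 of 133 cannot be set against it. The median of all genes includes genes without counts, whose fold change is 0. Only 33 of the copies had a mean of at least 1 CPM. The median of the copies was -0.28 in *suvh4/5/6*, -0.15 in *cmt2/3*, and 0.01 in *cmt2/3 ldl2*. No copy was thus called higher in *suvh4/5/6* or *cmt2/3*, genotypes that lose H3K9me2 and non-CG methylation in TEs. Within 500000 bases on either side of the insertion, 8 of 159 TE genes were called higher in *suvh4/5/6* (2.09% of all genes), 9 with *ldl2* added (2.94%), and 4 in *cmt2/3* (2.32%), beside 0 of the 17 copies that are annotated as TE genes. These 17 copies had 574 counts in all, and the difference between the sets was not tested.

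The sum over the 133 copies in CPM shows the same genotypes at the low end (plot of summed CPM by library). It was 217, 233, and 233 CPM in WT and 168, 163, and 173 in *suvh4/5/6 ldl2*, without overlap. In *suvh4/5/6* it was 188, 152, and 222 CPM, which overlapped WT. It was 260, 261, and 245 CPM in *cmt2/3 ldl2*, all above WT, and 305, 276, and 181 CPM in cxs *ldl2*, which lay on both sides of WT. Single libraries of sxc and sxc *ldl2* reached 293 and 283 CPM. In the *ashh3* experiment the sum was 170, 193, and 171 CPM in WT, 128, 149, and 168 in cxs, and 164, 164, and 197 in cxs *ashh3*, and all cxs libraries lay below WT. No test is given for a sum over chosen genes.

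**Figure D3:**
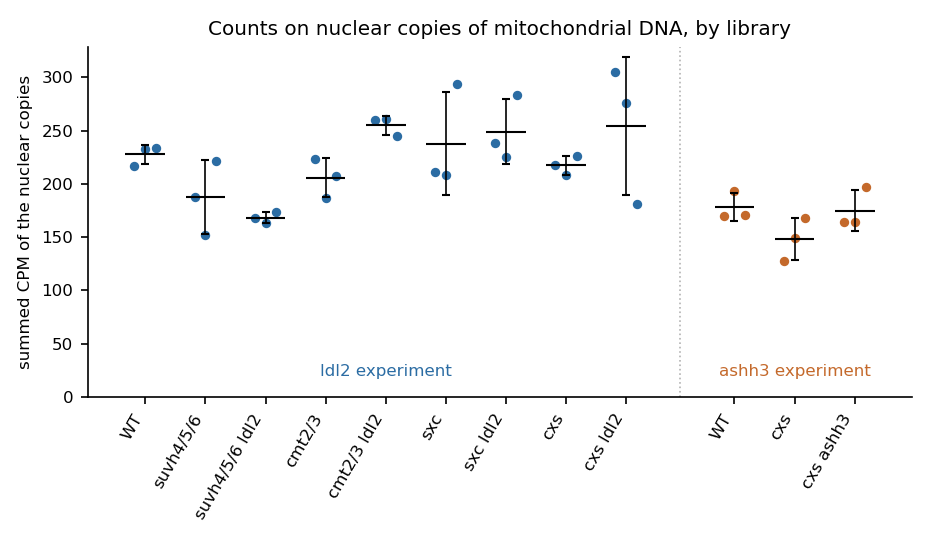
Summed CPM of the 133 nuclear copies of mitochondrial DNA (vertical axis) in each library, by genotype and experiment (horizontal axis). Points are libraries, horizontal lines are means, and error bars are SD (n = 3); the 3 *suvh4/5/6 ldl2* libraries, at 163 to 173 CPM, lie below all 3 of WT, at 217 to 233.

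Any difference among the 9 genotypes was called for 3 of the 133 copies (2.26%, against 7.09% of all genes), and none of these calls held in every alternative fit. The *ccmFN1* copy AT2G07783 was at 18.1, 18.2, and 22.9 CPM in WT, each genotype in increasing order. It had 10.6, 13.6, and 14.0 CPM without the *SUVH* genes (*suvh4/5/6*) and 11.8, 13.1, and 15.7 CPM with *ldl2* added. In cxs it was at 15.5, 15.8, and 18.04 CPM, and in cxs *ldl2* at 20.8, 28.0, and 45.2. The libraries of *suvh4/5/6* and *suvh4/5/6 ldl2* lay below WT and those of cxs *ldl2* above cxs, with a log2 fold change of 0.93 ± 0.22 for the latter (adjusted P = 0.0681, edgeR) that was 0.58 ± 0.21 without replicate 2 of cxs *ldl2* (adjusted P = 0.63, edgeR). The test over all genotypes gave an adjusted P of 0.00963, and of 0.0646 without replicate 2 of cxs *ldl2* (edgeR).

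AT2G07732, the nuclear copy of ATMG00280, is annotated as a part of the large subunit of the CO2-fixing enzyme Rubisco, a stretch of chloroplast origin. It was at 2.25, 2.64, and 3.13 CPM in WT, 0.361, 0.532, and 1.01 in *suvh4/5/6 ldl2*, and 1.59, 4.50, and 28.8 in cxs *ldl2*, each in increasing order, where the highest value is replicate 2. Its adjusted P over all genotypes was 0.00624, and 0.306 without that library (edgeR). AT2G07708, next to the *nad7* pseudogene, is annotated as a protein of unknown function with ATMG00500 as its best match. It ranged from 4.23 to 11.2 CPM over the 27 libraries, lowest in *suvh4/5/6 ldl2* (4.23, 5.23, and 6.03 CPM) and highest in cxs *ldl2* (9.30, 9.38, and 11.2 CPM), with an adjusted P of 0.0472 over all genotypes that reached 0.106 when 1 library was left out (edgeR). This call was near the limit throughout: the result was weaker in 19 of the alternative fits and the same in 14.

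**Figure D4:**
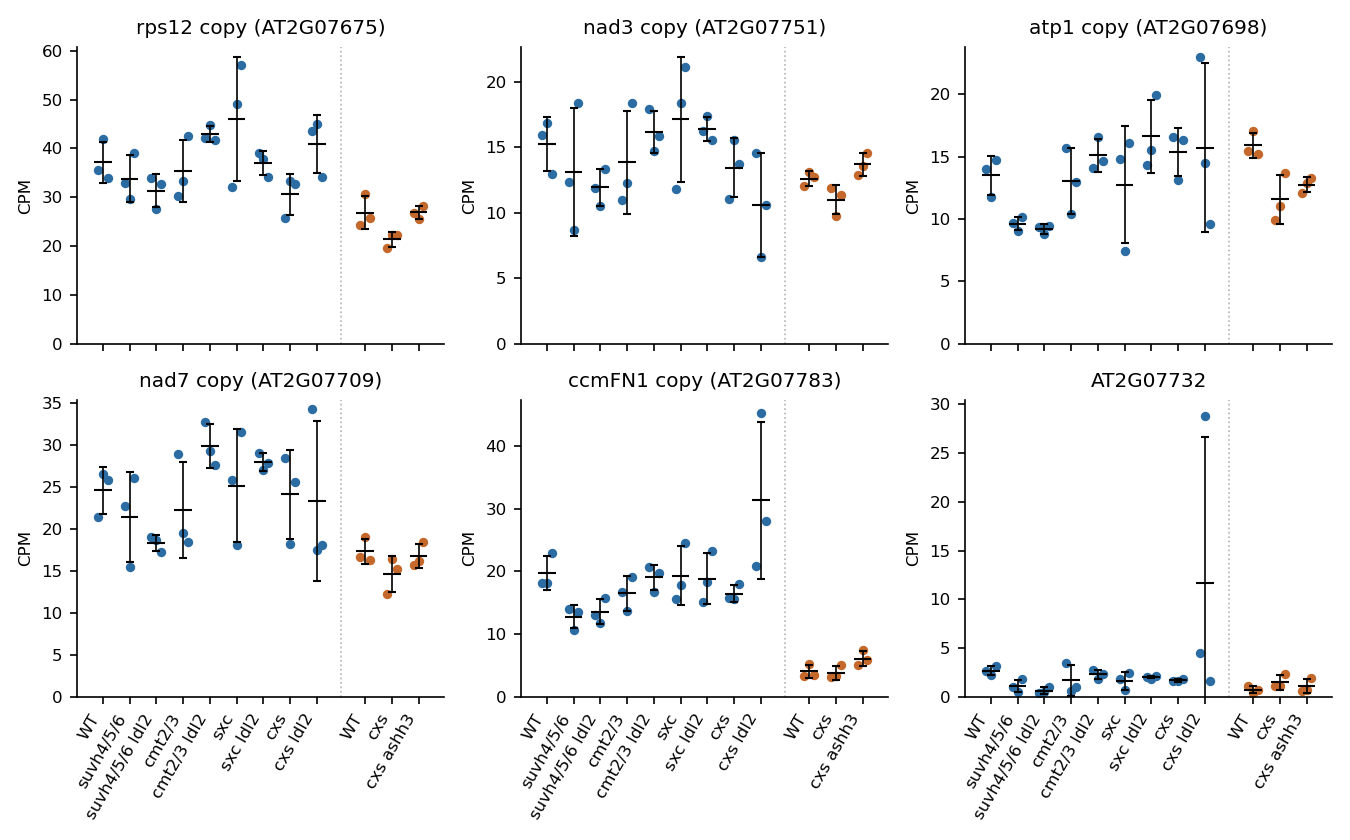
CPM (vertical axes) of 6 nuclear copies in each library, by genotype, with the *ldl2* experiment left and the *ashh3* experiment right of the dotted line. Points are libraries, horizontal lines are means, and error bars are SD (n = 3); replicate 2 of cxs *ldl2* is the highest point for AT2G07783 (45.2 CPM) and AT2G07732 (28.8 CPM).

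The nuclear genes that serve the same organelle had counts in every genotype and were read from 3 lists. Of 22 genes for nuclear-encoded subunits of the respiratory complexes and 9 for the transcription, splicing, and maintenance of the mitochondrial genome, none was called in any of the 17 comparisons. At an unadjusted P under 0.05 there were from 0 to 17 of the 40 genes of the 3 lists. The 17 were all lower in cxs *ldl2* than in sxc *ldl2*, where 3624 of all 33602 genes were lower at that level, and 8 of the 40 passed it without replicate 2 of cxs *ldl2*. Of 9 genes that respond to mitochondrial dysfunction, 1 was called higher than WT in *suvh4/5/6 ldl2* (2.94% of all genes were), 2 in *cmt2/3* (2.32%), and 2 in sxc *ldl2* (1.55%). In cxs *ldl2*, *AOX1A* and *ANAC013* were called lower than in sxc *ldl2* (1.38% of all genes were), and both calls were lost without replicate 2 of cxs *ldl2* (adjusted P = 0.287 and 0.314, edgeR). In the *ashh3* experiment 1 of the 9 was called lower than WT in cxs and 4 in cxs *ashh3*, beside 3.25% and 3.39% of all genes. Of these 4, *ANAC013* was not called in every alternative fit, with an adjusted P of up to 0.111 (edgeR or DESeq2).

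*AOX1A* (AT3G22370), the alternative oxidase that passes electrons to oxygen without the cytochrome pathway, was at 36.8, 41.1, and 45.8 CPM in WT, 67.5, 83.6, and 93.9 in *cmt2/3*, 69.6, 70.5, and 73.3 in *suvh4/5/6 ldl2*, and 62.3, 75.2, and 89.0 in sxc *ldl2*, each in increasing order. The 3 mutant genotypes did not overlap WT, with log2 fold changes of 0.99 ± 0.20, 0.79 ± 0.20, and 0.87 ± 0.20 (adjusted P = 0.00491, 0.0223, and 0.0176, edgeR). Libraries of *suvh4/5/6* (62.9, 65.7, and 74.4 CPM) and *cmt2/3 ldl2* (46.2, 47.9, and 51.7 CPM) also lay above WT, without a call. Those of sxc (42.0 to 72.6 CPM) and cxs (41.4 to 75.8 CPM) overlapped WT. The call in *suvh4/5/6 ldl2* was lost in 5 of the 6 fits without 1 of its libraries or of WT, with an adjusted P of up to 0.127, and that in sxc *ldl2* in 3 of 6, with an adjusted P of up to 0.134 (edgeR). *AOX1A* was also called lower in cxs *ashh3* than in WT of the *ashh3* experiment (49.5, 50.6, and 53.5 against 64.1, 76.2, and 76.5 CPM, log2 fold change -0.50 ± 0.10, adjusted P = 0.00511, edgeR). *ANAC013* (AT1G32870), a transcription factor of the mitochondrial stress response, was at 9.33, 10.5, and 11.1 CPM in WT, 13.9, 21.0, and 25.9 in *cmt2/3*, and 21.0, 24.9, and 28.3 in sxc *ldl2* (log2 fold changes of 0.98 ± 0.26 and 1.27 ± 0.26; adjusted P = 0.0358 and 0.00656, edgeR). Its call in *cmt2/3* was lost in 5 of the 6 fits without 1 library, with an adjusted P of up to 0.216 (edgeR). In the *ashh3* experiment, *OM66* (AT3G50930), an outer membrane protein of this response, was at 43.6, 43.7, and 65.9 CPM in WT, 13.7, 19.6, and 22.8 in cxs, and 17.1, 24.8, and 30.6 in cxs *ashh3* (log2 fold changes against WT of -1.44 ± 0.20 and -1.07 ± 0.19; adjusted P = 3.47e-05 and 0.00117, edgeR). The seed storage protein gene *CRA1* ranged from 2.64 to 57.9 CPM in the cxs libraries of that experiment, from 0.702 to 6.78 in WT, and from 0.314 to 0.463 in cxs *ashh3*. Its part in the differences was not tested.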

How the data were processed

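For mRNA-seq of independent biological replicates of seedlings, the authors used the KAPA mRNA HyperPrep Kit, mapped paired reads, clipped at their ends, to TAIR10 with STAR, and deposited raw read counts per gene, with 1 strand per gene, chosen per table. The STAR version is not given in the sources used here. Counts were used as deposited. The 12 further count files, whose names match no sample label, were not used here, although they list counts above 0 for mitochondrial genes.

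Libraries were grouped by their labels, 3 per genotype. The tests used R 4.3.3 and edgeR 4.0.16, with TMM scaling, no filter, all genotypes of an experiment in 1 fit, quasi-likelihood F tests, and Benjamini-Hochberg adjustment over all 33602 genes, with calls at 0.05. DESeq2 (version 1.42.0) was an alternative, with other scalings, filterByExpr, 2-group fits, the replicate number as a block, bias-adjusted dispersions, and fits without each library. Scripts were tested on simulated counts. The depth of each library limits a count of 0 to below 3 counts.

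Nuclear copies were found with blastn (BLAST version 2.17.0; 95% identity, 100 bases, 80% of the span) in the TAIR10.1 reference. The mitochondrial sequence of TAIR10.1 differs from that of the tables, so the table coordinates of mitochondrial genes were not used. Mitochondrial genes were to be named by level and by test, which names none at 0 counts. The nuclear copies and stress genes that the text names were chosen after their values were seen, and the mitochondrial genes and all lists were chosen with earlier results of these data known.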

Additional observations from a re-analysis of the deposited data

How the results depend on the processing

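The 0 of 146 mitochondrial genes called could not change under any alternative, because every count is 0, and so says nothing about how firm the result is. The alternatives that gave a value were RLE scaling, scaling from nuclear genes only, fits of the 2 compared groups, the replicate number as a block, bias-adjusted dispersions, and fits without each library. filterByExpr removed all 146, DESeq2 gave no adjusted P, and leaving out the mitochondrial gene with most counts could not be run, since all are at 0. The alternatives for nuclear copies and nuclear genes for mitochondrial proteins were chosen after seeing the data.

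For the 133 copies, with 0 called, fits of the 2 compared groups called 2 in *suvh4/5/6 ldl2* against WT. In cxs *ldl2* against cxs, DESeq2 called 2 and bias-adjusted dispersions 2. In cxs *ldl2* against sxc *ldl2*, DESeq2 called 2, RLE scaling 1, filterByExpr 2, the replicate block 1, and bias-adjusted dispersions 3. Over all 9 genotypes DESeq2 called 7 in place of 3. Without 1 library the copies called ranged from 0 to 6 in cxs *ldl2* against WT, 0 to 7 in cxs *ldl2* against cxs, 0 to 9 in cxs *ldl2* against sxc *ldl2*, 0 to 2 in cxs against WT of the *ashh3* experiment, and 0 to 7 over all genotypes. The highest counts in the *ldl2* experiment came without replicate 1 of cxs *ldl2*, and the 0 over all genotypes without its replicate 2.

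For the 40 nuclear genes for mitochondrial proteins, *suvh4/5/6* against WT had 0 called, and RLE scaling, filterByExpr, the replicate block, DESeq2, and bias-adjusted dispersions called 1 each and the 2-group fit 2. DESeq2 called 3 in *suvh4/5/6 ldl2*, 7 in *cmt2/3*, 1 in sxc, 5 in sxc *ldl2*, and 1 in cxs *ldl2* against WT, 2 in *cmt2/3 ldl2* against *cmt2/3*, 2 in cxs *ldl2* against cxs, 7 in cxs *ldl2* against sxc *ldl2*, 1 in cxs *ashh3* against cxs, and 6 over all genotypes. The 2-group fit called 4 in *suvh4/5/6 ldl2*, 8 in *cmt2/3*, and 4 in sxc *ldl2* against WT, 5 in *cmt2/3 ldl2* against *cmt2/3*, and 0 in cxs *ldl2* against sxc *ldl2*. filterByExpr called 4 in *cmt2/3*, and bias-adjusted dispersions called 2 in cxs *ldl2* against cxs, 6 in cxs *ldl2* against sxc *ldl2*, and 4 over all genotypes. Without 1 library the ranges were 0 to 1 in *suvh4/5/6 ldl2*, 1 to 2 in *cmt2/3*, 0 to 3 in sxc, 1 to 2 in sxc *ldl2*, 0 to 8 in cxs *ldl2*, and 1 to 5 in cxs (*ashh3* experiment) against WT, 0 to 12 in cxs *ldl2* against cxs, 0 to 14 in cxs *ldl2* against sxc *ldl2*, 0 to 2 in cxs *ashh3* against cxs, and 2 to 5 over all genotypes. The share of all genes called in each alternative fit is not given, so the counts for these genes and for the copies cannot be set against it. The causes were not tested.

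Deviations of libraries with the same replicate number correlated by over 0.1 in 38 of 108 pairs of the *ldl2* experiment (median 0.0454) and in 0 of 9 of the *ashh3* experiment (median -0.0482), and 15 of 27 and 1 of 9 libraries correlated best with their own number. Pairs of libraries with different numbers had medians of -0.0166 and 0.0306. Since not every pair was over 0.1, the numbers were not taken as pairs, a rule that cannot show that libraries of the same number were unrelated. The replicate block changed no count of calls other than those given. Depth limits copies under 1 CPM, which are most of the 133.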
